A study of Mus musculus with 80 samples.

Results

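DNA methylation in serum was compared between 2 wild-type mouse embryonic stem cell (ESC) lines, E14 and the TET WT line, in 67878 autosomal regions of 500 bp (tiles). Reduced representation bisulfite sequencing (RRBS) reads methylation in fragments cut at CpG-containing sites, so CpG-rich DNA is over-represented. A tile entered when it held 20 or more calls at 3 or more cytosine positions in each of 4 libraries, and 409989 tiles had a call in any of them. The tiles were chosen by depth alone and not by their methylation. The 4 libraries were 2 replicates of E14 (background strain E14, wild-type) and 2 of TET WT (background strain C57/129/FVB, wild-type), both in serum with no time in 2i. TET WT is the control of a line lacking TET1, TET2 and TET3, and the labels give no further allele or agent for either line. The strain background and the line therefore cannot be told apart. A C-to-T sequence difference between the backgrounds is read as an unmethylated call by this assay, and it cannot be told apart from missing methylation here. The series holds 80 samples, which also follow these and related lines into 2i, a medium without serum in which MEK and GSK3 are inhibited. Serum libraries of other lines are also shown. UHRF1 WT, with the labelled background strain of E14, is the wild-type control of a line in which Uhrf1 is deleted (UHRF1 KO). The paper describes this deletion as inducible, set off with a tamoxifen-inducible Cre before the experiment. TET TKO is the line lacking the TET proteins, with the labelled background strain of TET WT. The ChIP-BS inputs are bisulfite libraries of unselected chromatin, labelled as E14.

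Cytosine methylation in mammals sits mainly at CpG dinucleotides. It is copied at replication by DNMT1 with UHRF1, is added by the DNMT3 enzymes and is oxidised by TET proteins. CpG-dense promoters are usually unmethylated, whereas CpG-poor DNA is methylated in serum-grown ESCs. Imprinted control regions are an exception, since they carry methylation on the copy from one parent only and are a known weak point of cultured ESCs, where either copy can gain or lose it.

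The 4 serum libraries held 14194069 to 19637120 calls, with 12.6 and 9.64 calls per autosomal position in TET WT and 12.8 and 13.0 in E14. Calls that are PCR copies of the same molecule are not independent, so depth covers counting error only. Nothing in the labels says that replicates came from separate cultures, so p-values measure the spread between these libraries. RNA was measured in E14 and not in TET WT. In the 3 E14 serum RNA-seq samples all 9 ESC markers lay at 5.16 to 9.33 on the deposited log2 scale, against a 75th percentile of 2.51 over all genes. The 6 fibroblast feeder markers reached at most 2.74 (Col1a1), the 4 primitive endoderm markers 0.20, the 2 mesoderm markers 0.63 and the 2 ectoderm markers 0.38. Of 4 Y-linked genes 3 lay at 1.61 or above and Kdm5d at -6.97 to -6.57, and Xist lay at -4.77 to -3.78. RRBS calls on chromosome Y were present in both lines (1642 and 1803 in E14, 1240 and 1034 in TET WT).

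Some tiles could be tied to a gene promoter, and 4 such promoters are shown because their tiles were called different between the lines. They were picked after tile values had been seen. RefSeq promoter sequences (table of build GRCm38.p6) were placed on the positions of the files, which follow build NCBIM37, by the spacing of their CpGs. The 250 bases before the gene start are given 5′ to 3′ on the gene's strand, with CpG dinucleotides in capitals. Plagl1 (chr10:12810388-12810637, plus strand) encodes a zinc finger regulator of growth and is an imprinted gene whose promoter is normally methylated on the maternal copy. Commd1 (chr11:22872867-22873116, minus strand) encodes a regulator of copper handling. Sycp1 (chr3:102740024-102740273, minus strand) encodes a structural protein of the synaptonemal complex in meiosis. Tmem267 (chr13:120277030-120277279, plus strand) encodes a transmembrane protein.
Plagl1: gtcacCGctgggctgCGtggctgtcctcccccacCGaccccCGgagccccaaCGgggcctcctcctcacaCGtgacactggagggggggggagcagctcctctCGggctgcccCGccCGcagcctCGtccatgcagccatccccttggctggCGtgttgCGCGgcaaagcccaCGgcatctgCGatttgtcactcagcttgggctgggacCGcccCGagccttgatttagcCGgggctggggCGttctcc
Commd1: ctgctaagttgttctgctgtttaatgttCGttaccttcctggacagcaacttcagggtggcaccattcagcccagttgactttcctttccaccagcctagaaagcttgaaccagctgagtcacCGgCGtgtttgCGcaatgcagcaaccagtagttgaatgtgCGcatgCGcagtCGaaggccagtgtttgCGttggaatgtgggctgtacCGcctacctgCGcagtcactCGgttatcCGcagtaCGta
Sycp1: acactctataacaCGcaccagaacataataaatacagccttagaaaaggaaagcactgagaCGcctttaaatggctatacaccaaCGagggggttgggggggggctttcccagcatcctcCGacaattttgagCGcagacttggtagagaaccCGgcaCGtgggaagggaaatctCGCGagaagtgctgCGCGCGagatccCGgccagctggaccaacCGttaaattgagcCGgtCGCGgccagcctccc
Tmem267: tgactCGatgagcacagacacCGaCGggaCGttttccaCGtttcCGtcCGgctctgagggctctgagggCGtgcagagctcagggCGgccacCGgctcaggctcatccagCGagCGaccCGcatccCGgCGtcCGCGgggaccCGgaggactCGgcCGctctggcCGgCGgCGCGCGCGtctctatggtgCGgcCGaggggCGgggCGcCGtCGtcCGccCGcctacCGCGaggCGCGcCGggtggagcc
These stretches hold 19, 13, 17 and 39 CpGs. The letters TGCCGC, which in methylated form are bound by the imprint protein ZFP57, were found 1 time on either strand of the Plagl1 stretch and not in the other 3, and 8.68% of the 32851 promoter windows of that length hold them. This motif too was looked up after the values were known. Within the printed stretches, few positions had 5 or more calls in all 4 libraries. They were 4 at Plagl1, with means of 94.2% and 89.7% in E14 and 23.8% and 3.57% in TET WT. At Commd1 the 8 positions averaged 32.7% and 50.6% against 0% and 0%, and at Sycp1 the 12 positions averaged 73.2% and 64.7% against 35.7% and 41.0%. At Tmem267 the 10 positions averaged 0% and 1.33% in E14 and 19.8% and 21.6% in TET WT. These positions lie wholly or partly inside the tiles that picked the promoters, so they add no separate support.

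The first question was whether the lines start from the same global level. Over the 874504 autosomal positions that reached 5 calls in each library, E14 stood at 19.6% and 20.1% and TET WT at 15.8% and 15.8%. The means were 19.8% ± 0.348 and 15.8% ± 0.00141 (SD, n = 2), a difference of 4.09 points. The close match of the TET WT replicates held at shared positions. Over each library's own autosomal positions, pooled calls stood at 15.1% and 17.9% in TET WT and 21.5% and 22.1% in E14, and with each library's own positions of 5 or more calls the difference was 6.64 points. At shared positions the libraries of the lines did not overlap, but an exact two-sided permutation test of 2 against 2 cannot go below 0.333, which was the p-value here. Of 511342 positions with 10 or more calls in all 4 libraries, 11.3% and 11.6% were methylated at 80% or more in E14 and 6.41% and 6.49% in TET WT. Positions under 10% made up 75.5% and 75.04% in E14 and 78.1% and 77.9% in TET WT.

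The same difference was then measured with libraries of the lines from 2i added to those from serum. Across serum and 48 h and 96 h in 2i, 652918 positions had 5 or more calls in all 12 libraries. E14 stood at 18.5% and 18.8% in serum, 16.5% and 16.6% after 48 h, and 13.3% and 13.4% by 96 h. TET WT stood at 14.7% and 14.7%, 13.9% and 13.8%, and 10.4% and 10.4%. E14 was higher at each time, by 3.90, 2.70 and 2.93 points, with no overlap between lines. The mean difference was 3.17 points (exact two-sided permutation of the lines within time points, p = 0.00926, the smallest that 216 arrangements can give). The 12 libraries include the serum libraries already compared, so this p-value does not come from the 2i libraries alone. It measures the spread between libraries of these lines.

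**Figure D1:**
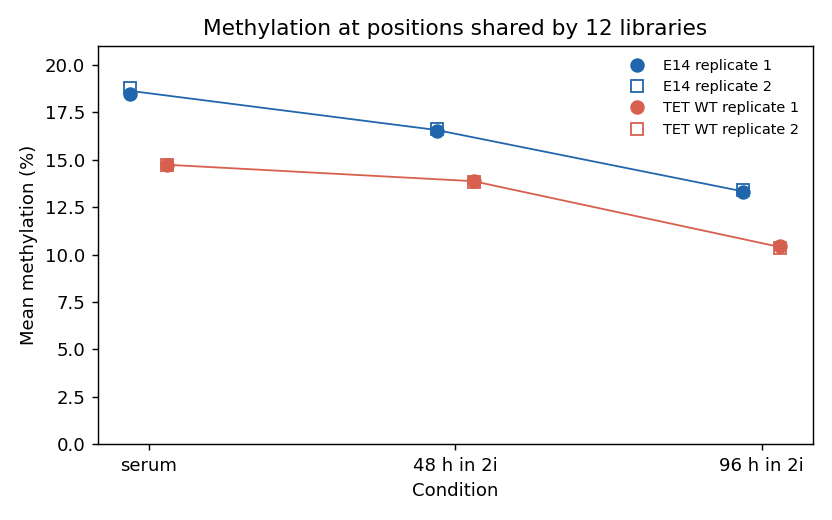
Mean methylation (%) at 652918 shared positions in each of 12 libraries (points; lines join the means) of E14 and TET WT in serum and at 48 h and 96 h in 2i. E14 lies above TET WT at each time, by 3.90, 2.70 and 2.93 points.

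Averaged over the 67878 tiles, E14 stood at 37.6% and 38.3% and TET WT at 30.6% and 30.6%, a mean difference of 7.41 points and a median of 2.84. E14 was higher in 55901 tiles (82.4%), TET WT in 10986, and 991 were equal. The libraries of the lines did not overlap in 39972 tiles (58.9%). The lines differed by 20 points or more in 13.98% of tiles, whereas the replicates of E14 did in 1.19% and those of TET WT in 2.57%. These large differences were one-sided, with 9187 tiles higher in E14 and 305 in TET WT. Tiles at 90% or more made up 11.3% and 11.9% in E14 and 3.23% and 3.26% in TET WT. Tiles between 30% and 70% made up 15.2% and 15.0% in E14 and 21.1% and 21.4% in TET WT.

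**Figure D2:**
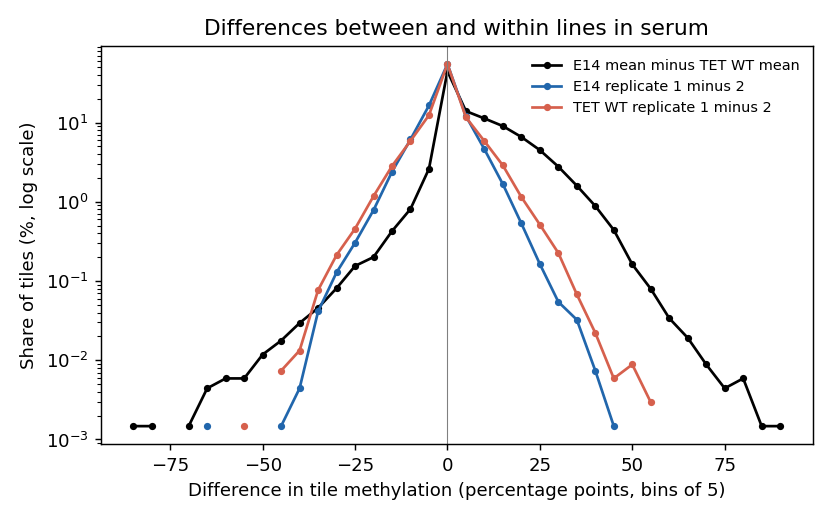
Share of the 67878 tiles (%, log axis) in bins of 5 percentage points of difference, for E14 minus TET WT (means of 2 libraries) and for the replicates of each line. The curve between lines leans to the right, where 9187 tiles are 20 points or more higher in E14, against 305 higher in TET WT.

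Methylated and unmethylated counts were then tested per tile, and a call required an adjusted p (Benjamini-Hochberg) under 0.05 together with line means at least 20 points apart. The quasi-binomial fit that had been set as the main test called 2 tiles, 0.00295% of those tested, 1 in each direction (0.00147% each), although 22555 tiles (33.2%) had an unadjusted p under 0.05. Its 8 tiles with an adjusted p under 0.05 included 6 that differed by less than 20 points, and 7 of the 8 were higher in TET WT. Among the alternatives listed with it, edgeR's quasi-likelihood test on the same counts called 7996 tiles higher in E14 (11.8%) and 253 higher in TET WT (0.373%), 12.2% in all, and limma on log2 ratios called 0, with 18828 tiles at an unadjusted p under 0.05. On simulated data neither the quasi-binomial fit nor limma found tiles of known change. Only a small share of tiles was changed there, by a set amount and with a set spread. The simulation therefore does not show how either fit does on these data. Their low counts alone do not show that tiles were alike. Leaving out TET WT replicate 1 lowered the edgeR count to 59, and leaving out TET WT replicate 2 lowered it to 193. Without E14 replicates 1 and 2 it was 7357 and 6298. The quasi-binomial fit called 0 tiles without any one of the 4 libraries. The edgeR tiles are described from here on, and that choice was made after these counts were seen. Before it, the low count of the first fit had led to a comparison of 4 other sets of tiles for estimating the dispersion. One of these, the tiles with 5 or more expected calls of each kind, was taken first and then set aside for edgeR. It called 8656 tiles higher in E14 (12.8%) and 279 in TET WT (0.411%), 13.2% in all.

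The 2 tiles called by the quasi-binomial fit were also called by edgeR, and both lay at promoters. The tile at chr10:12810501-12811000 (NCBIM37) overlaps the placed promoters of Plagl1 and of Hymai, an imprinted transcript that shares its start region. It was methylated at 88.5% and 88.0% in E14 and at 7.40% and 10.6% in TET WT, from 548 to 1021 calls. E14 was high and TET WT nearly unmethylated, with a difference of 79.3 points (adjusted p = 0.0371 in the quasi-binomial fit and 2.95e-11 in edgeR). At all 46 positions with 5 or more calls in the 4 libraries E14 was the higher line. Other lines in serum lay between, with 30.1% in UHRF1 WT, 14.9% and 28.1% in TET TKO and 47.3% and 49.7% in UHRF1 KO. The difference remained in 2i, where E14 stood at 75.9% and 72.2% at 168 h and TET WT at 12.7%.

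The second tile, chr13:120277001-120277500, overlaps the placed promoters of Tmem267 and 3110070M22Rik, which start close to each other on opposite strands. E14 was almost unmethylated (2.41% and 1.47%) and TET WT stood at 60.2% and 59.4%. The difference was -57.8 points (adjusted p = 0.0371 in the quasi-binomial fit and 2.81e-10 in edgeR). Depth differed with it, since TET WT gave 3812 and 3140 calls and E14 415 and 339, and the part of this difference in the result was not tested. TET WT was higher at 10 and E14 at 2 of the 16 positions with 5 or more calls in all libraries, with a median difference of -66.3 points. Of these, the 10 inside the printed Tmem267 stretch averaged 19.8% and 21.6% in TET WT, so the tile level did not hold across positions. The share of calls at positions read in both lines was not computed for this tile. UHRF1 WT (73.1%) and TET TKO (75.5% and 73.0%) were also methylated there. At 168 h E14 stood at 0% and 0.539% and TET WT at 56.6%.

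The placed promoters were nearly all unmethylated in both lines. Of 27025 RefSeq symbols, 4048 had a promoter with a clear place, and 3745 of them fell on 3571 tested tiles. In 3479 of these tiles (97.4%) all 4 libraries were under 10%, and the mean difference was 0.578 points. The calls held 7 promoter tiles higher in E14 (0.196%) and 1 higher in TET WT (0.0280%), shares that the low level of the class limits. Of the promoter tiles, 59 had a mean level of 10% or more, and 13.6% of these were called, against 22.8% of all 36236 tiles at that level. This difference was not tested. Only promoters with 8 or more covered CpGs could be placed, so CpG-poor promoters were not examined.

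The other 6 called promoter tiles were higher in E14. Sycp1, a meiotic gene, stood at 68.2% and 62.7% in E14 and 34.6% and 38.5% in TET WT (edgeR adjusted p = 0.00372). Both lines were methylated there, but at different levels, and UHRF1 WT stood higher still at 91.6%. Commd1 stood at 30.4% and 43.2% in E14 and at 1.08% and 0% in TET WT (edgeR adjusted p = 4.50e-07). The other serum libraries stood at 1.23% in UHRF1 WT, 19.3% and 24.8% in UHRF1 KO, 20.4% and 21.4% in TET TKO and 12.5% and 10.53% in the ChIP-BS inputs, separate libraries labelled as E14. Vmn2r29, a vomeronasal receptor gene, stood at 53.8% and 58.5% in E14 and at 20.3% and 4.79% in TET WT (edgeR adjusted p = 9.21e-05). It belongs to a large family of similar genes, so its reads may be shared with copies. The remaining 3 were 4930590L20Rik, Trim58, which encodes a ubiquitin ligase, and Gm40327, with differences of 38.3, 21.8 and 21.2 points.

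Called tiles with 40 or more calls in each library were ranked by the size of the difference, and 8 tiles were named in each direction. Of these 16, the quasi-binomial fit called 1, edgeR called 10 without TET WT replicate 1 and 13 without TET WT replicate 2. The tile with the largest difference was chr1:172975001-172975500, at 94.2% and 96.6% in E14 and 5.15% and 1.08% in TET WT. Its difference was 92.2 points (edgeR adjusted p = 2.95e-11), and all 8 positions read deeply enough were higher in E14. The next, chr2:157385001-157385500, stood at 89.3% and 92.0% in E14 and 10.53% and 9.60% in TET WT, a difference of 80.6 points (edgeR adjusted p = 3.88e-10). Both tiles went from almost full methylation in E14 to almost none in TET WT, as the Plagl1 tile did. In UHRF1 WT they stood at 8.84% and 43.9%, and in TET TKO at 40% and 42.6% for the first and 43.6% and 40.3% for the second.

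The other 5 named tiles higher in E14 were chr1:38870001-38870500, chr11:19920501-19921000, chr15:99650001-99650500, chr7:6084001-6084500 and chr15:4974001-4974500. Their differences ran from 78.3 down to 64.8 points, and none overlapped a placed promoter. Levels in E14 ran from 62.5% to 91.3% and in TET WT from 1.89% to 21.2%. UHRF1 WT lay between the lines in 8 of the 8 tiles higher in E14, and the mean of TET TKO in 7 of 8. In all 8, E14 was above TET WT without overlap at 48 h, 96 h and 168 h, in libraries the ranking did not use. Of all tiles with 20 or more calls in each library of the time, 51.9%, 43.8% and 42.7% showed this order without overlap, the last with 1 library of TET WT. Loss in 2i differed among them. At chr1:172975001-172975500 E14 still stood at 66.4% and 76.9% at 168 h, and at chr15:99650001-99650500 it stood at 16.1% and 23.0%, when the mean of all tiles in E14 was 17.6% and 17.4%.

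The 8 named tiles higher in TET WT had differences from -67.1 to -46.4 points. The first, chr14:9445501-9446000, stood at 3.57% and 7.46% in E14 and 70.8% and 74.4% in TET WT (edgeR adjusted p = 6.79e-07). In this tile and in the second, chr13:120277501-120278000, no position had 5 or more calls in all 4 libraries. In the first, the lines shared 1 position, which held 13.8% of the calls of E14 and 14.3% of those of TET WT. In the second they shared 14 positions, which held 100% of the calls of E14 but 5.63% of those of TET WT, so both differences were read largely at different positions. The second adjoins the Tmem267 tile and stood at 6.72% and 6.94% in E14 and 71.7% and 61.5% in TET WT. The others were chr9:107853501-107854000, chr3:66900501-66901000, chr10:35396501-35397000, chr2:34494501-34495000, chr11:24496501-24497000 and chr7:19762001-19762500. UHRF1 WT lay at or above the level of TET WT in 5 of 8, and the mean of TET TKO in 5 of 8. Tiles ranked by the gap between the lines leave other lines little room outside it, and UHRF1 WT averaged 46.7% over all tiles, above both lines, so nothing is read from these counts. At chr7:19762001-19762500 UHRF1 WT (4.04%) was as low as E14. TET WT stayed above E14 in all 8 at 48 h and 96 h and in the 7 that were read at 168 h, an order that 4.71%, 5.07% and 22.4% of all tiles showed without overlap.

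**Figure D3:**
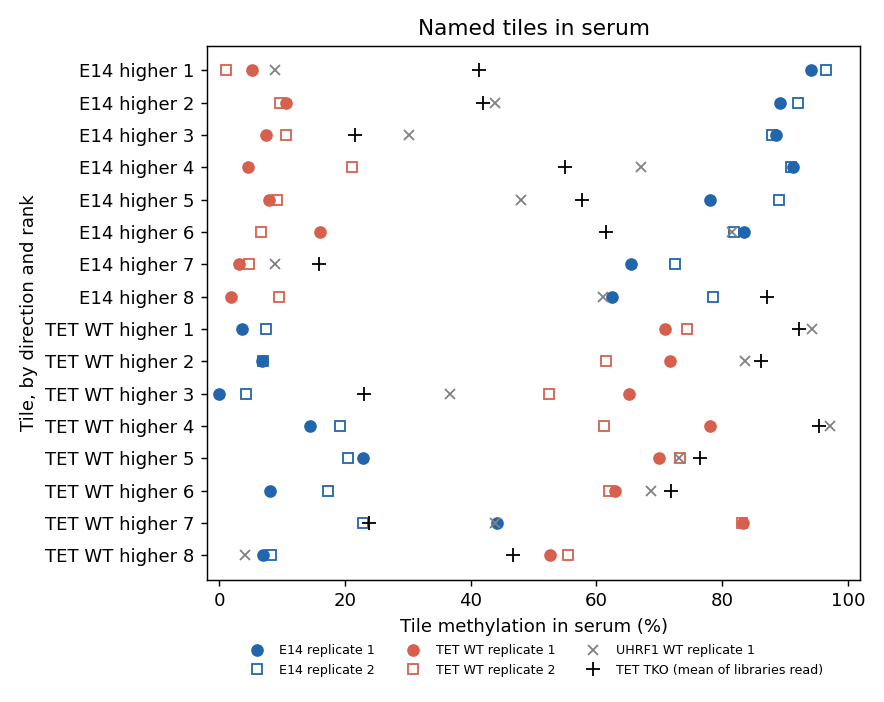
Serum methylation (%) of the 16 named tiles in the E14 and TET WT libraries, with UHRF1 WT and the mean of TET TKO. UHRF1 WT lies between the lines in 8 of the 8 tiles higher in E14, and at or above TET WT in 5 of the 8 higher in TET WT.

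Most called tiles had no called neighbour of the same direction, which depends also on which nearby tiles were read and on the threshold of a call. How many had a tested neighbour was not counted. Runs were built from called tiles of the same direction with starts at most 2 kb apart. Among tiles higher in E14, 6785 had no called neighbour, 458 runs held 2 tiles, and the longest held 8. The 8 called tiles of chr15:76005001-76011000 averaged 57.9% and 64.3% in E14 and 34.9% and 37.4% in TET WT. All 10 tested tiles of that stretch were higher in E14, by 11.2 points or more, an order that the choice of the run fixed in its 8 called tiles. The uncalled tiles were higher in E14 by 11.2 and 15.4 points, and 82.4% of all tiles were higher in E14. The run of 7 at chr4:141029001-141035500 averaged 62.4% and 63.2% against 28.1% and 28.0%. The run of 7 at chr4:132617001-132621500 averaged 54.9% and 59.3% against 26.4% and 29.2%. Averaged over each of these runs, both lines were partly methylated, and UHRF1 WT was higher than either line (79.5%, 88.5% and 93.6%). Single tiles within the runs ranged more widely than these means. Tiles higher in TET WT formed 5 runs, of 2 tiles each. They included the Tmem267 promoter, chr3:6300001-6301000 at 16.1% and 19.3% in E14 and 64% and 75% in TET WT, and chr7:19761501-19762500 at 6.09% and 9.12% in E14 and 44.8% and 41.9% in TET WT.

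**Figure D4:**
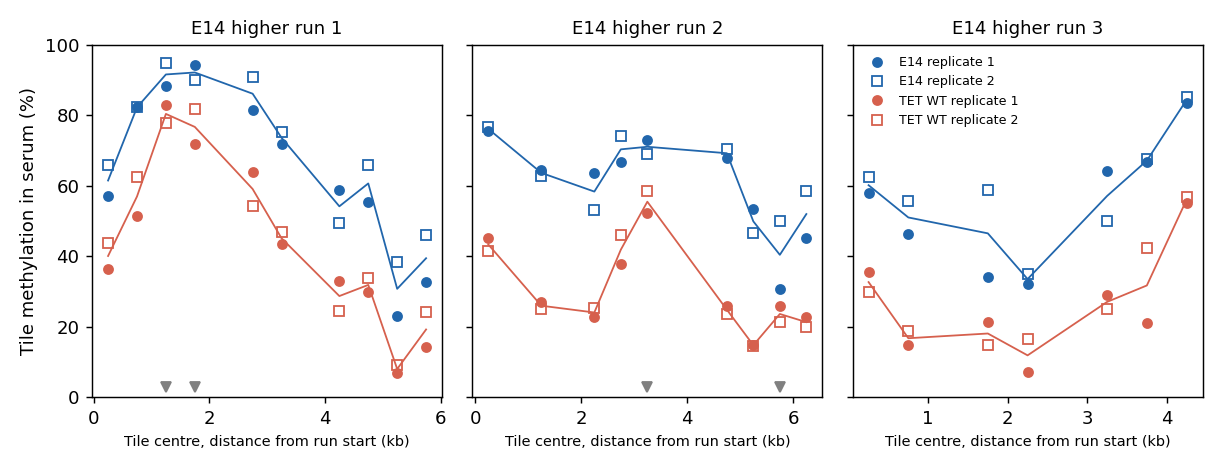
Serum methylation (%) of each tested tile in the 3 longest runs higher in E14, by distance of the tile's centre from the start of the run (kb). Points are libraries, lines join line means and grey triangles mark tiles that were not called; E14 lies above TET WT along each run, by 11.2 points or more in the first. The called tiles were picked for that order.

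The mean difference was smaller in tiles with more covered positions, which also had lower methylation. In 23227 tiles with 3 to 5 covered positions E14 stood at 66.0% and 66.7% and TET WT at 54.5% and 54.5%, and 19.3% were called higher in E14. In 18054 tiles with 6 to 10 positions the levels were 46.7% and 47.5% against 37.7% and 37.7%. The levels fell to 13.99% and 14.8% against 10.2% and 10.4% with 11 to 20 positions. In 15627 tiles with 21 or more positions they were 1.67% and 2.15% against 1.05% and 1.14%, and 0.339% were called higher in E14. The mean difference was thus 11.9 points in the sparsest tiles and 0.809 in the densest. A difference of 20 points needs a mean level of at least 10%, which 89.2% of the sparsest and 2.19% of the densest tiles had. Among the 36236 tiles at or above that level, the shares called higher in E14 lay much closer, at 21.6%, 23.0%, 22.4% and 15.5% from the sparsest to the densest. The mean differences of those tiles were 13.0, 12.9, 13.0 and 11.7 points. Depth moved the other way, from a median of 40 to 56 calls per library in the sparsest tiles to 399 to 576 in the densest.

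The difference was spread over the genome. Its mean per autosome ran from 6.25 points (chromosome 12) to 8.33 (chromosome 17), and E14 was higher on each of the 19. On chromosome X, where 1226 tiles passed the depth rule, E14 stood at 28.3% and 28.8% and TET WT at 23.8% and 23.9%. Depth per tile was not even between the lines. As medians over tiles, relative to E14 and centred on the median of all tiles, calls in TET WT were higher on chromosome 8 by 0.49 and 0.52 and on chromosome 14 by 0.60 and 0.63 on the log2 scale. In TET TKO these values were 0.00 and -0.01 on chromosome 8 and 0.15 and 0.16 on chromosome 14. The mean methylation difference on those chromosomes was 7.94 and 6.86 points, within the range of the others.

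Called tiles were followed in libraries that took no part in the calls, with shares of all tiles given beside them. Every called tile had a mean serum level of 10% or more, as 36236 of all 67878 tiles had. The shares of all tiles include those under that level, which could not be called in serum. No share among tiles of like level is given. Of the 7996 tiles higher in E14, 6806 were tested at 48 h, and E14 was again higher in 6614 (97.2%), against 81.9% of all tiles tested at both times. The mean difference was 18.2 points (SD 10.6 over tiles), and edgeR called 2128 of them at 48 h in the same direction and 0 in the opposite, with 4.79% of all 48 h tiles called higher in E14 (5.18% in either direction). At 96 h E14 was higher in 6992 of 7168 (97.5%, against 75.1% of all tiles), by 17.5 points on average. There 1585 were called in the same direction, against 3.99% of all 96 h tiles (4.26% in either direction). Of the 253 tiles higher in TET WT, 208 were tested at 48 h and TET WT was again higher in 202 (97.1%, against 16.3% of all tiles), and 141 were called in that direction, where 0.391% of all 48 h tiles, or 244, were called higher in TET WT. At 96 h TET WT was higher in 206 of 214 (96.3%, against 20.04% of all tiles), and 94 were called in that direction, where 0.265% of all 96 h tiles, or 171, were called higher in TET WT. The quasi-binomial fit first set as main called 0 tiles at both times, with 18313 and 15364 tiles at an unadjusted p under 0.05.

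The called tiles were also read in the other serum lines. Tiles higher in E14 averaged 69.7% and 70.6% in E14 and 41.0% and 40.7% in TET WT, values that the calls themselves fixed. In UHRF1 WT they averaged 88.2%, in TET TKO 73.0% and 72.9%, and in UHRF1 KO 69.9% and 73.3%. TET TKO, which shares its labelled background strain with TET WT, stood near E14 here. Over all tiles read TET TKO averaged 39.9% and 37.2%, from 63961 and 57918 tiles against 67878 in E14, so these means cover unlike tile sets. Pooled over each library's own autosomal positions, TET TKO stood at 24.3% and 24.1%, E14 at 21.5% and 22.1% and TET WT at 15.1% and 17.9%. A level of TET TKO above TET WT is thus not particular to the called tiles, which were picked for a low level in TET WT. Tiles higher in TET WT averaged 38.7% and 39.2% in E14 and 71.0% and 70.5% in TET WT. They averaged 71.4% in UHRF1 WT, 67.7% and 67.7% in TET TKO and 70.6% and 74.3% in UHRF1 KO. The UHRF1 KO means rest on fewer tiles, 1731 and 4533 of the first class and 69 and 139 of the second. Its deletion was inducible, and how long UHRF1 had been absent in these serum libraries is not shown here. Their means therefore do not give the level of cells long without UHRF1. The tiles higher in TET WT were picked for a low level in E14, so E14 as the low line here is fixed by that choice. The ChIP-BS inputs gave 67.2% and 65.1% in the first class and 48.6% and 51.0% in the second, from tiles with 5 or more calls. UHRF1 WT rests on 1 library, and its tiles averaged 46.7% over all tested tiles read, above both lines.

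**Figure D5:**
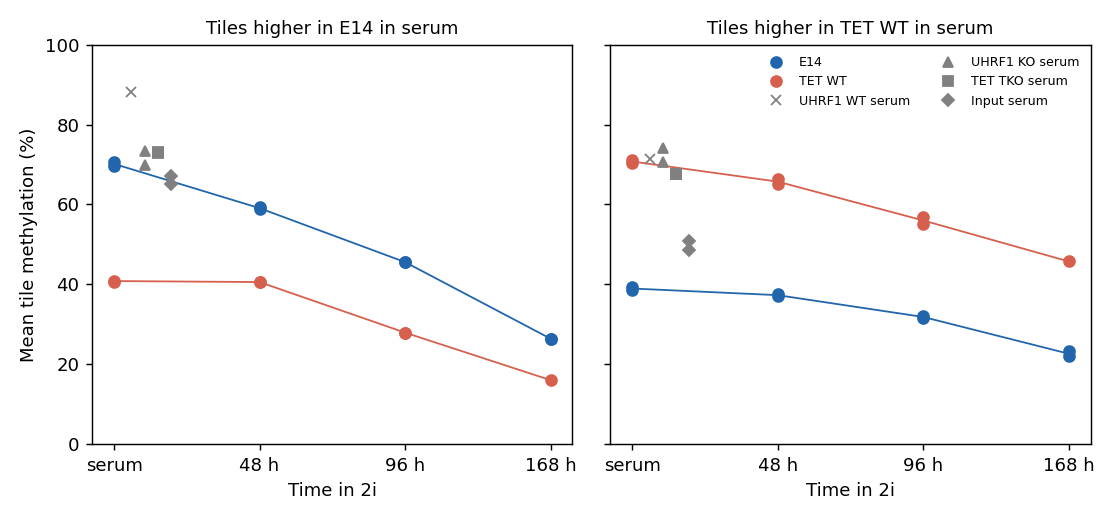
Mean methylation (%) of tiles called higher in E14 (left) and in TET WT (right), by time in 2i; points are libraries of E14 and TET WT, lines join their means, and grey symbols are other serum libraries. In the right panel UHRF1 WT, UHRF1 KO and TET TKO lie at 67.7% to 74.3%, near TET WT and above E14. The tiles of that panel were picked for a low level in E14.

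In 2i the tiles higher in E14 kept the order of the lines. They had been chosen on the serum values, a choice that by itself makes the serum gap larger than that of later libraries. E14 went from 69.7% and 70.6% in serum to 58.9% and 59.3% after 48 h. Its level was 45.6% and 45.5% by 96 h, and the 168 h libraries stood at 26.4% and 26.4%. TET WT was at 41.0% and 40.7% in serum, at nearly the same level of 40.5% and 40.7% after 48 h, and at 28.0% and 27.9% by 96 h. Its 1 library of 168 h stood at 16.0%. Tiles higher in TET WT were at 45.7% in TET WT and at 23.3% and 22.0% in E14 at 168 h.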

How the data were processed

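RRBS libraries of E14 and TET WT in serum were compared (2 each). The submitters' processing notes name Trim Galore 0.3.5 and Bismark 0.12.3, and the positions follow build NCBIM37. Per cytosine position the authors deposited a percent and, as counts, the methylated and the unmethylated calls; levels were computed here from the counts. The E14 RNA-seq table was deposited by the authors as log2 values. Calls were summed in tiles of 500 bp, with at least 20 calls and 3 positions in each library.

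The test set as main was a quasi-binomial fit in R 4.3.3, with dispersion moderated over all tiles (limma 3.58.1) and Benjamini-Hochberg adjustment. It called 2 tiles, with 1.76 prior degrees of freedom. After that count was seen, 4 other sets of tiles for the prior were compared, also with depth as a covariate, and a lower bound on the dispersion was added and removed again. The planned edgeR 4.0.16 alternative (methylated and unmethylated counts, library intercepts) was then taken to describe tiles. All fits were tested on simulated data, and how they did there entered the choice. The fit set as main and limma did not find tiles of known change there, whereas edgeR and the other priors did. Only a small share of tiles was changed in that simulation, so it does not settle which fit suits these data. Adjusted p-values are from edgeR unless stated.

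Named tiles had 40 or more calls in each library and no overlap between lines, and were not on chromosome 18. The 8 largest differences in each direction, at least 10 kb apart, and the 3 longest runs were taken. RefSeq promoters were placed by CpG spacing alone, an idea that came after tile values had been seen. Several minimum numbers of covered CpGs were compared by the share placed on the chromosome of the table, and 8 was kept. Of 4438 windows with a clear place, 99.6% lay on that chromosome, and the rest were dropped. Members and lists were chosen with earlier results of these data known. One UHRF1 WT serum library with almost no positions was not used.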

Additional observations from a re-analysis of the deposited data

How the results depend on the processing

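The global difference kept its direction under all alternatives, from 3.52 points with 10 or more calls per position to 7.41 over tested tiles, with 6.64 on each library's own positions, and leaving out a replicate gave 3.84 to 4.34. No exact p-value under 0.333 was possible. The mean over serum, 48 h and 96 h was 2.72 with 10 calls and 3.93 with 1. The number of called tiles depended on the test. Set against the 2 tiles of the quasi-binomial fit, 50 or more calls per tile gave 1610, no minimum difference 8 (1 higher in E14 and 7 in TET WT), the fit of 4 lines 1607, 1000-bp tiles 5436 and edgeR 8249. Leaving out tiles over 1000 calls, the larger dispersion, limma and a replicate block gave 0 each. Leaving out a replicate gave 0 in each of the 4 cases. Priors chosen after seeing the data, because the first count was so low, gave 8377 (tiles with a spread above 0), 9014 (both kinds of calls in all libraries), 8935 (5 expected calls of each kind) and 8750 (10 expected calls). The edgeR count of 8249 became 3642 with 50 or more calls, 3798 with 5 or more positions, 12844 with no minimum difference and 1579 with 4 lines in the fit. The filters and the fit of 4 lines test fewer tiles. Without single replicates it was 59 to 7357, with 59 and 193 without TET WT replicates 1 and 2, and the cause was not tested. With the prior from tiles with 5 expected calls, the count of 8935 became 3703 with 50 calls, 4268 with 5 positions, 17535 with no minimum difference and 1648 with 4 lines, and without single replicates 5267 to 6984. Summed over 48 h and 96 h, the fit set as main called 0 tiles, and 1 with 50 or more calls per tile. The same sum for edgeR was 5983, and 2463 with 50 or more calls per tile. Replicate numbers are only names here. Same-numbered deviations had r = -0.00435 across tiles, and edgeR with a replicate block called 8657 tiles, 7992 of the 7996 higher in E14 and 253 of the 253 higher in TET WT among them. Of the 16 named tiles, the fit set as main called 1 and limma 0, edgeR with the block and the larger dispersion (with the prior from 5 expected calls) called 16, and 10 and 13 were called without TET WT replicates 1 and 2. None changed direction, but these settings could not have changed it. The other fits use the same differences, and named tiles were chosen without overlap between lines, so leaving out a library cannot reverse the sign. The median over positions could have differed in sign, and it kept the direction in the 14 named tiles where it was available. It uses the same calls in tiles picked for a large difference, so it adds no separate support. Tiles of few calls limit the precision, since the median tile had 75 to 106 calls per library.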

Other observations

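Positions read as methylated in one line and almost unmethylated in the other were rare and ran both ways. A C-to-T sequence difference between the backgrounds can be read the same way and cannot be told apart here. How many tiles these positions lie in was not counted. Of 511342 positions with 10 or more calls in all 4 libraries, 32 were at 80% or more in both E14 libraries and at 5% or less in both TET WT libraries, and 54 showed the reverse. Of the tiles, 9187 were 20 points or more higher in E14 and 305 in TET WT.

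Some tiles were read in one line only. Of 67309 tiles with 40 or more calls in both E14 libraries, 142 (0.211%) had no call in TET WT. Of 52003 tiles with 40 or more calls in both TET WT libraries, 278 (0.535%) had no call in E14. The higher depth of TET WT on chromosomes 8 and 14 was also present in its libraries from 2i, at 0.51 to 0.52 and 0.61 to 0.64 on the log2 scale. On chromosome 1 the values were 0.20 and 0.20 in serum, 0.23 and 0.24 at 48 h, and 0.18 and 0.18 at 96 h. The 168 h library stood at 0.08 there.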
